A study of Homo sapiens with 10 samples.

Results

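The comparison set 4 arrays of Oct4hi breast cancer cells (BCCs) against 4 arrays of Oct4low BCCs, 8 of the 10 arrays in the series, and every non-control probe set of the deposited table was tested. Both subsets came from MDA-MB-231, a human breast cancer line of basal-like and mesenchymal type that was stably transfected with a GFP reporter driven by the Oct4A promoter and selected with neomycin. Cells of both subsets therefore carry the reporter and the resistance gene. The brightest 5% of the cells by GFP were sorted as Oct4hi BCCs and the dimmest 5% as Oct4low BCCs according to the labels, whereas the results text of the paper gives a larger gate for Oct4low BCCs. The gate reads the activity of a reporter, and the Oct4 transcript itself is not analysed here. Total RNA (100 ng) was hybridized to Affymetrix U133 Plus 2.0 arrays, and the 2 arrays of the middle gate served here only to estimate the spread.

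Oct4 is a transcription factor of pluripotent cells, and reporters of its promoter have been used to look for progenitor-like cells in tumors. On these arrays a gene is read by 1 or several probe sets, each a group of short oligonucleotides, mostly near the 3′ end of a transcript. Probe sets with the plain suffix _at were designed to match 1 transcript, those ending in _s_at match several transcripts, usually of 1 gene, and those ending in _x_at can cross-hybridize. Whether the probe sets of a gene move together is therefore a check that lies within the data. It covers only the probe sets that the authors kept, since those that varied little had been removed.

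Values are log2 intensities, so a difference of 1 is a 2-fold change. Of 25727 non-control probe sets, 2238 were higher and 2264 lower in Oct4hi than in Oct4low BCCs (limma, Benjamini-Hochberg adjusted p below 0.05), which is 8.70% and 8.80%. Most of these changes were small: 80.7% of the 4502 called probe sets differed by less than 1.5-fold, and only 54 were more than 2-fold higher and 63 more than 2-fold lower. The median SD between replicates was 0.132 in Oct4hi and 0.135 in Oct4low BCCs. Arrays of the same subset correlated with r between 0.9914 and 0.9949, and arrays of different subsets between 0.9835 and 0.989. Probe sets with 1 gene symbol (18682) stood for 12082 genes. With each gene read by its brightest probe set, 1320 genes were higher (10.9%) and 1018 lower (8.43%), and the median change over all genes was 0.003. Among the 7219 genes in the brighter set, those whose brightest probe set had a mean at or above the median of all values (5.10), 17.0% were higher and 12.7% lower. The authors had removed features that varied little, so these shares are shares of the features they kept.

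The labelled cell type could be checked only in part. CAV1 and ANXA1, both abundant in MDA-MB-231 cells, had means of 12.04 and 12.2 in Oct4hi and 12.4 and 12.85 in Oct4low BCCs, and CD44 10.87 and 11.22. These 3 of the 8 measured markers of the line were lower and S100A4 was higher, and the mean level of the list was 8.62 to 8.7 in Oct4hi and 8.76 to 8.84 in Oct4low arrays, without overlap. The probe set that was kept for VIM, the intermediate filament of mesenchymal cells, lay near background (4.04). Of luminal markers, CDH1 (3.92), AGR2 (3.59) and PGR (3.24) were near background in Oct4hi BCCs, whereas XBP1 (10.45), EPCAM (8.08), GATA3 (6.87) and TFF1 (6.14) were not. The 8 measured luminal markers had a mean level of 5.98 to 6.04 in Oct4hi and 6.13 to 6.23 in Oct4low arrays, with 2 of 8 lower and none higher. Of 6 measured leukocyte markers, 2 were higher (ITGB2 and CD52), the pan-leukocyte gene PTPRC stayed at 3.09 in Oct4hi BCCs, and the mean level of the list was 4.63 to 4.8 against 4.55 to 4.7. Neither fibroblast (5 measured) nor erythroid (1 measured) markers were called, and of 2 endothelial markers PECAM1 was lower. The part of these markers in the results was not tested.

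The first group of genes consisted of those with at least 2 probe sets, all called in the same direction, and with no overlap between the subsets. Of 4166 genes with 2 or more probe sets, 202 were higher and 108 lower on every one. Here and below, every probe set means every one that the authors kept. A probe set that varied little had been removed and could not count against agreement. Without overlap, and leaving out the genes that the paper names, 189 rose and 97 fell. Of all non-control probe sets, 21.3% did not overlap. The 12 genes with the largest agreed change in each direction were a mixture of cell cycle, RNA, secreted and unannotated genes. TMEM132D-AS1, an antisense RNA gene, gave 6.41, 6.27, 6.66 and 6.4 in the Oct4hi arrays and 4.57, 4.33, 4.64 and 4.78 in the Oct4low arrays on its brighter probe set. Its lowest Oct4hi array lay far above its highest Oct4low array, and its changes on both probe sets were 1.85 and 1.06 (SE 0.109 and 0.127). ENDOD1, named for an endonuclease domain, read 7.41, 7.34, 7.3 and 7.59 against 6.35, 6.45, 6.4 and 6.4, a rise of 1.01 (SE 0.088), and 0.75 on its other probe set. ZFP82, a KRAB zinc finger gene, read 8.51, 8.43, 8.35 and 8.43 against 7.41, 7.38, 7.28 and 7.45, a rise of 1.05 (SE 0.088). Its other probe set gave 0.57, so both probe sets put every Oct4hi array above every Oct4low array.

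Genes of chromosome handling and RNA stood among the same risers. TOP2A, the topoisomerase that untangles DNA in mitosis, rose by 0.83 and 0.63 on its probe sets, and ASPM, a spindle pole protein, by 0.73 and 0.99. DHX9, an RNA helicase, rose by 0.94 and 0.95, but its arrays were spread widely: 9.23, 8.4, 8.2 and 8.41 in Oct4hi against 7.96, 7.75, 7.44 and 7.31 in Oct4low BCCs (SE 0.188 and 0.227). FAM111B, a serine protease, rose by 0.78 and 0.98 with a similar spread (SE 0.176 for both). The secreted proteins SERPINA1, the protease inhibitor alpha-1-antitrypsin, and CXCL14, a chemokine, rose by 0.66 and 0.58 on their brighter probe sets. YPEL2 (0.68), PLAAT1 (0.8), a phospholipid-modifying enzyme, and SEL1L3 (0.57) completed the 12.

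Among the agreed falls, CYP1B1, a cytochrome P450 that oxidizes estrogens and polycyclic hydrocarbons, read 8.16, 8.03, 8.1 and 8.15 in Oct4hi and 9.07, 9.06, 9.03 and 9.07 in Oct4low BCCs on the brightest of its 3 probe sets. The 3 probe sets fell by 0.94, 1.09 and 0.83. CDH11, a cadherin of mesenchymal cells, fell on all 4 of its probe sets by 0.62 to 0.97, and on the brightest it read 11.01, 11.03, 10.92 and 10.98 against 11.75, 11.83, 11.81 and 11.76. Both genes kept their subsets apart with little spread inside a subset. NR4A2, an orphan nuclear receptor, fell on 3 probe sets by 0.88, 1.02 and 0.97. HAS2, which makes hyaluronan, fell by 0.77 and 1.09, although its values were low (4.05 to 4.15 against 4.77 to 4.94). ANXA1, an annexin that dampens inflammation, fell by 0.65 from a high level, and 0.98 on its dimmer probe set. PXDN, the peroxidase that crosslinks collagen IV, fell by 0.56 and 0.63, and GBP2, an interferon-induced GTPase, by 0.68 on both of its probe sets. SEMA3C (1.34 and 0.67), CLEC2B, FILIP1L, TMCC3 and TMEM156 made up the rest, with falls of 0.55 to 1.34.

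**Figure D1:**
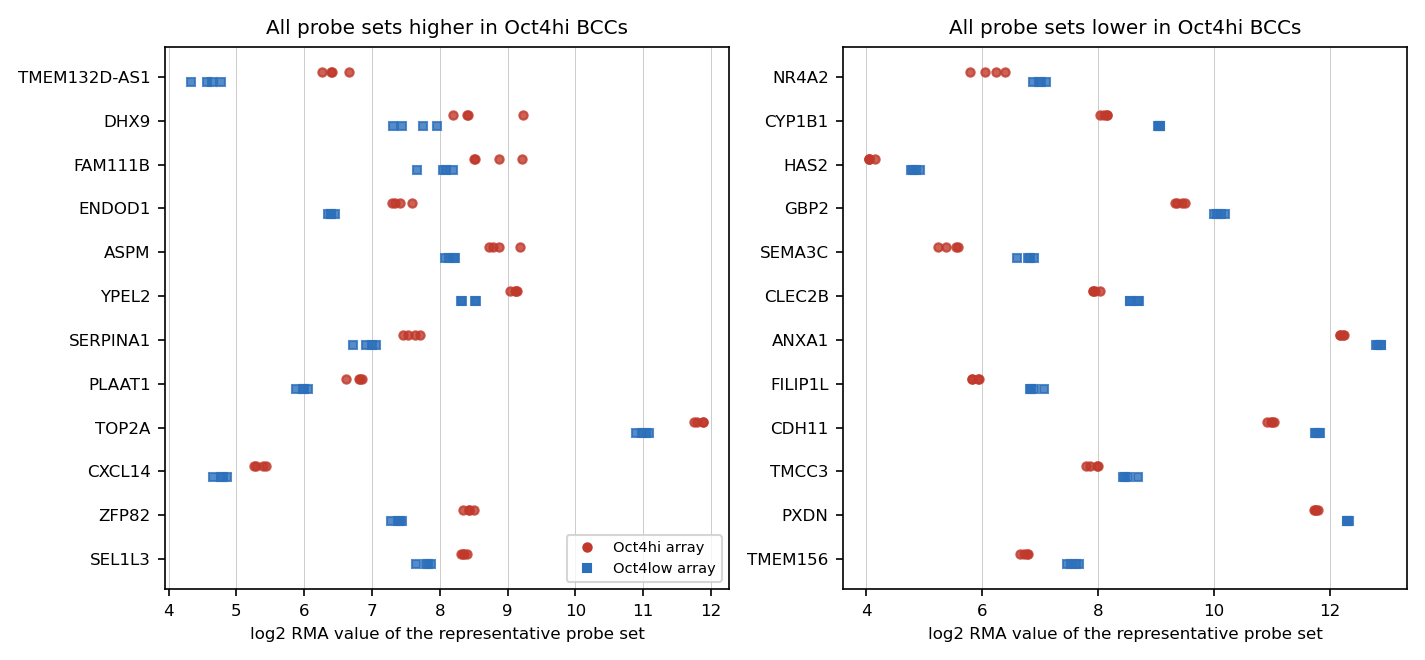
Log2 values (x axis) of the 24 genes with the largest agreed change, 1 row per gene, on the brightest probe set of the gene. Circles are the 4 Oct4hi arrays and squares the 4 Oct4low arrays; no gene has overlapping subsets, the Oct4hi values of DHX9 run from 8.2 to 9.23, and those of PXDN only from 11.72 to 11.79.

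Genes with a single probe set have no such check. They numbered 7916 at all levels. Among those in the brighter set that the paper does not name, 560 were higher and 379 lower with no overlap between the subsets. The number of single-probe-set genes in the brighter set is not given here, so 560 and 379 cannot be read as shares. Of all genes in the brighter set, those with several probe sets included, 17.0% were higher and 12.7% lower, with or without overlap. The uncharacterized gene LOC105371703 had the largest rise, with 6.87, 6.98, 6.8 and 7.06 in Oct4hi against 4.82, 4.8, 4.64 and 4.57 in Oct4low BCCs, a difference of 2.22 (SE 0.093). VSTM1, a receptor of myeloid cells, rose by 1.36, the long non-coding RNA gene LINC01224 by 1.22, INHBE, a subunit of activin E, by 1.16, MAGEH1 by 1.1 and HSPA2, an Hsp70 chaperone abundant in testis, by 1.06. VIPR1, the receptor for vasoactive intestinal peptide, had the largest fall, from 8.24, 8.22, 8.08 and 8.17 in Oct4low to 6.86, 6.8, 6.72 and 6.53 in Oct4hi BCCs, a difference of -1.45 (SE 0.095). KCNS3, a modifying potassium channel subunit, followed with -1.27, COL4A5, a collagen IV chain, with -1.2, RASAL2, a Ras GTPase-activating protein, with -1.2, the ligand BMP4 with -1.12 and LYPD6B with -1.11.

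Across the 4166 genes with 2 or more probe sets, every probe set was called higher for 202 and lower for 108, while 2568 had none called. For 1246 genes some probe sets were called and none the other way, and for 42 genes probe sets were called in opposite directions. The brightest and the next brightest probe set of a gene changed in the same direction for 63.9% of genes (Pearson r 0.55, Spearman rho 0.475, across genes, which are not independent replicates). Where both lay in the brighter set (2123 genes) this was 71.5% (r 0.645), and where the dimmer one lay below the median of all values it was 55.9% (r 0.321). When the brightest probe set was called, in 1175 genes, the next one had the same sign in 79.9% and was itself called that way in 474, against 18 called the other way. The size of the change did not carry over fully: the brightest called probe sets had a median change of 0.393 and the next ones a median of 0.233 in that direction. Changes of at least 1 on the brightest probe set (36 genes) had the same sign on the next in 86.1%, with medians of 1.3 and 0.41. For changes under 0.25 the share was 56.8%.

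**Figure D2:**
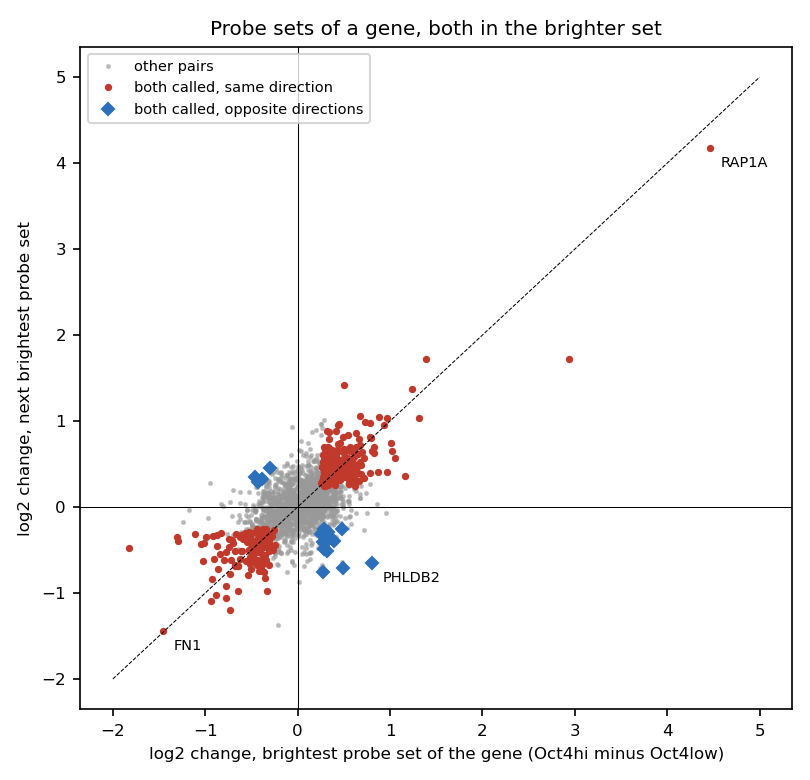
Log2 change of the brightest probe set of a gene (x axis) against that of its next brightest (y axis) for the 2123 genes with both in the brighter set; the dashed line marks equal change. Red points were called on both in the same direction and blue diamonds in opposite directions; FN1 lies near -1.46 on both, RAP1A near 4.46 and 4.17, and the opposite calls lie close to 0 except for a few such as PHLDB2.

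FN1, which encodes the matrix protein fibronectin, was the clearest case of agreement, with all 7 of its probe sets lower. The 4 bright ones fell by 1.43 to 1.46, and on the brightest the values were 11.21, 11.32, 11.27 and 11.27 in Oct4hi and 12.74, 12.71, 12.72 and 12.72 in Oct4low BCCs. The 3 dim ones fell by 0.55, 0.96 and 0.96. Another 3 genes, with 1 probe set each, were read alongside: TMEM98, a membrane protein, was higher by 1.45, ADGRG2, an adhesion G protein-coupled receptor, by 1, and FAT4, a giant protocadherin, lower by 1.13, in each case without overlap.

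RAP1A, a small GTPase that regulates integrin adhesion, had the largest difference of any probe set and also the largest disagreement inside a gene. Its probe set 1555340_x_at read 12.73, 12.68, 12.84 and 12.85 in Oct4hi and 8.27, 8.3, 8.34 and 8.33 in Oct4low BCCs, a 22.1-fold difference. Probe set 1555339_at gave an 18.0-fold difference in the same direction (12.36, 12.33, 12.29 and 12.4 against 8.09, 8.13, 8.32 and 8.14). The remaining probe set, 228548_at, went the other way, with 6.8, 6.77, 6.78 and 6.7 against 7.15, 7.37, 7.08 and 7.2, a fall of 0.44 (SE 0.09, limma adjusted p = 0.00326). The first pair moved alike and the last one did not, and which sequence each probe set reads is not given in the sources used here. The paper reports that neither PCR nor western blot bore out the array difference of RAP1A. These large differences are therefore not to be read as a rise of the gene.

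In 31 genes probe sets of the brighter set were called in opposite directions. After RAP1A, the widest were PHLDB2, ZCCHC7, RBM26, DLG1, UFM1, GART and CALD1. In PHLDB2, a protein of the cell cortex, 238419_at was higher by 0.81 and 1557578_at lower by 0.65, the first with overlap between the subsets. In UFM1, a ubiquitin-like modifier, 222502_s_at was higher by 0.48, 242669_at lower by 0.56, and the brightest probe set, 218050_at, differed by only -0.05 (SE 0.087). GART, an enzyme of purine synthesis, had 210005_at higher by 0.27 and 230097_at lower by 0.75 among 6 probe sets. CALD1, the actin-binding protein caldesmon, had 201615_x_at and 201617_x_at higher by 0.55 and 0.65 and 235834_at lower by 0.36. In RBM26, DLG1, UFM1 and CALD1 the brightest probe set was not called (0.38 in CALD1, limma adjusted p = 0.0667).

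The kind of probe set went with the direction of change. Of the 6246 probe sets without a gene symbol here, 149 were higher and 663 lower (2.39% and 10.6%), and in the brighter set 116 were higher and 441 lower of 2171. Probe sets with 1 gene symbol and the plain suffix were nearly even (1064 higher, 1131 lower of 12597). Those with 1 gene symbol and the suffix _s_at leaned the other way, with 741 higher and 327 lower of 4138. At a mean level between 7 and 9, 375 plain probe sets were higher and 379 lower, 289 _s_at probe sets higher and 115 lower, and 49 unnamed ones higher and 99 lower. At a level of 9 and over the unnamed probe sets no longer leaned down, with 30 higher and 22 lower of 99. Inside genes the suffixes differed too: in 637 genes with 1 probe set of each suffix as the 2 brightest, both in the brighter set, the _s_at change was above the plain one in 67.0%, with a median difference of 0.089.

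By array, the bright unnamed probe sets had a median deviation from the mean of the 8 arrays of -0.072, -0.095, -0.075 and 0.033 in Oct4hi replicates 1 to 4, and of 0.029, 0.096, 0.025 and 0.072 in the Oct4low arrays. Oct4hi replicate 4 thus lay with the Oct4low arrays, and without it 128 unnamed probe sets were higher and 880 lower. Without Oct4hi replicate 1, Oct4hi replicate 2 or Oct4low replicate 2, 415, 414 and 394 were lower. The named _s_at probe sets did not overlap, with 0.028 to 0.071 in Oct4hi and -0.07 to -0.021 in Oct4low arrays. Of 23 control probe sets 5 did not overlap between the subsets, against 21.3% of all other probe sets. The control for 18S ribosomal RNA was at 13.04 to 13.34 in Oct4hi and 12.77 to 12.96 in Oct4low arrays, and the probe sets for the middle and the 5′ part of the spiked-in control lys (version r2) were lower in Oct4hi arrays by 0.22 and 0.26. The part of RNA quality or labelling in the direction of these classes was not tested.

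A second pattern followed position in the genome. The 7198 genes of the brighter set with a chromosome in RefSeq were counted by chromosome and, in RefSeq order, in 193 stretches of 35 to 52 neighbouring genes. Chromosome names and gene order are those of GRCh38.p14, and this division was chosen after the values were seen. On chromosome X, 115 of 279 genes were higher and 16 lower (41.2% and 5.73%), against 16.0% and 12.9% of the autosomal genes. The median change of X-linked genes was 0.23, and 215 of the 279 lay above 0. Every Oct4hi array had X-linked genes above the mean of the 8 arrays (0.11, 0.12, 0.1 and 0.12) and every Oct4low array below it (-0.11, -0.12, -0.08 and -0.13).

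The rise was not even along the chromosome. In the first stretch, from PLCXD1 to SCML2, 21 of 40 genes were higher and none lower, and in the second, from PHKA2 to CDK16, 30 of 40 were higher and none lower, with a median of 0.34 and 38 of 40 above 0. The last 2 stretches had medians of 0.07 each, with 7 and 12 genes higher and 4 each lower. The 2 arrays of the middle gate lay at -0.37 and -0.25 in the second stretch, below every Oct4low array (-0.22 to -0.12), so the level did not follow the order of the gates. MAOA, the monoamine oxidase that breaks down serotonin and noradrenaline, rose most in the second stretch, with 9.23, 9.38, 9.43 and 9.3 in Oct4hi against 7.92, 7.94, 7.99 and 7.94 in Oct4low BCCs. Its other probe sets rose by 1.72 and 1.77. MED14, a subunit of the Mediator complex, rose by 0.69, RPS6KA3, a kinase downstream of ERK, by 0.56 and PDHA1, a pyruvate dehydrogenase subunit, by 0.41. Of genes in the pseudoautosomal region, PLCXD1, PPP2R3B, CSF2RA and ZBED1 rose by 0.46, 0.34, 0.57 and 0.52, while others, such as DHRSX (0.11), AKAP17A (0.08) and ASMTL-AS1 (-0.17), were not called. Of 128 X-linked genes with several probe sets, 24 had every probe set higher, 3 every probe set lower and 2 opposite calls. The lean was present on X-linked plain probe sets (88 higher, 18 lower of 231) and on _s_at probe sets (64 higher, 3 lower of 124).

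Stretches on chromosomes 10 and 4 fell. In the first stretch of chromosome 10, from ZMYND11 to SEPHS1, 21 of 38 genes were lower, none was higher, and 36 lay below 0 (median -0.32). Its arrays read -0.19, -0.13, -0.18 and -0.15 in Oct4hi and 0.19, 0.13, 0.16 and 0.17 in Oct4low BCCs. TASOR2 fell by 0.91, AKR1C3, a steroid and prostaglandin reductase, by 0.87, GATA3, a transcription factor of luminal cells, by 0.76, PFKFB3, a regulator of glycolysis, by 0.6 and KLF6, a Krüppel-like factor, by 0.42. The other 7 stretches of chromosome 10 had medians from -0.1 to 0.08. On chromosome 4, the second and the third stretch, from MRFAP1L1 to FRYL, had 12 and 18 of 36 genes lower and 0 and 2 higher, with medians of -0.14 and -0.25. PCDH7, a protocadherin, fell there by 0.94, CPEB2, a regulator of translation, by 0.9 and RBM47, an RNA-binding protein, by 0.7, whereas SEL1L3 rose by 0.57.

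Smaller leanings ran through whole chromosomes. On chromosome 14, 28.6% of genes were higher and 6.39% lower, on chromosome 15 26.7% and 5.18%, and on chromosome 22 3.95% and 18.6%. The third stretch of chromosome 14, from DMAC2L to SNAPC1, and the seventeenth of chromosome 1, from FCMR to MARK1, had 17 of 38 and 15 of 36 genes higher. In 158 of the 193 stretches the median lay within 0.1 of 0. Each of these counts comes from single-gene calls, and neighbouring genes are not independent. No measure of DNA copy number was analysed here, and gene dosage was not tested.

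**Figure D3:**
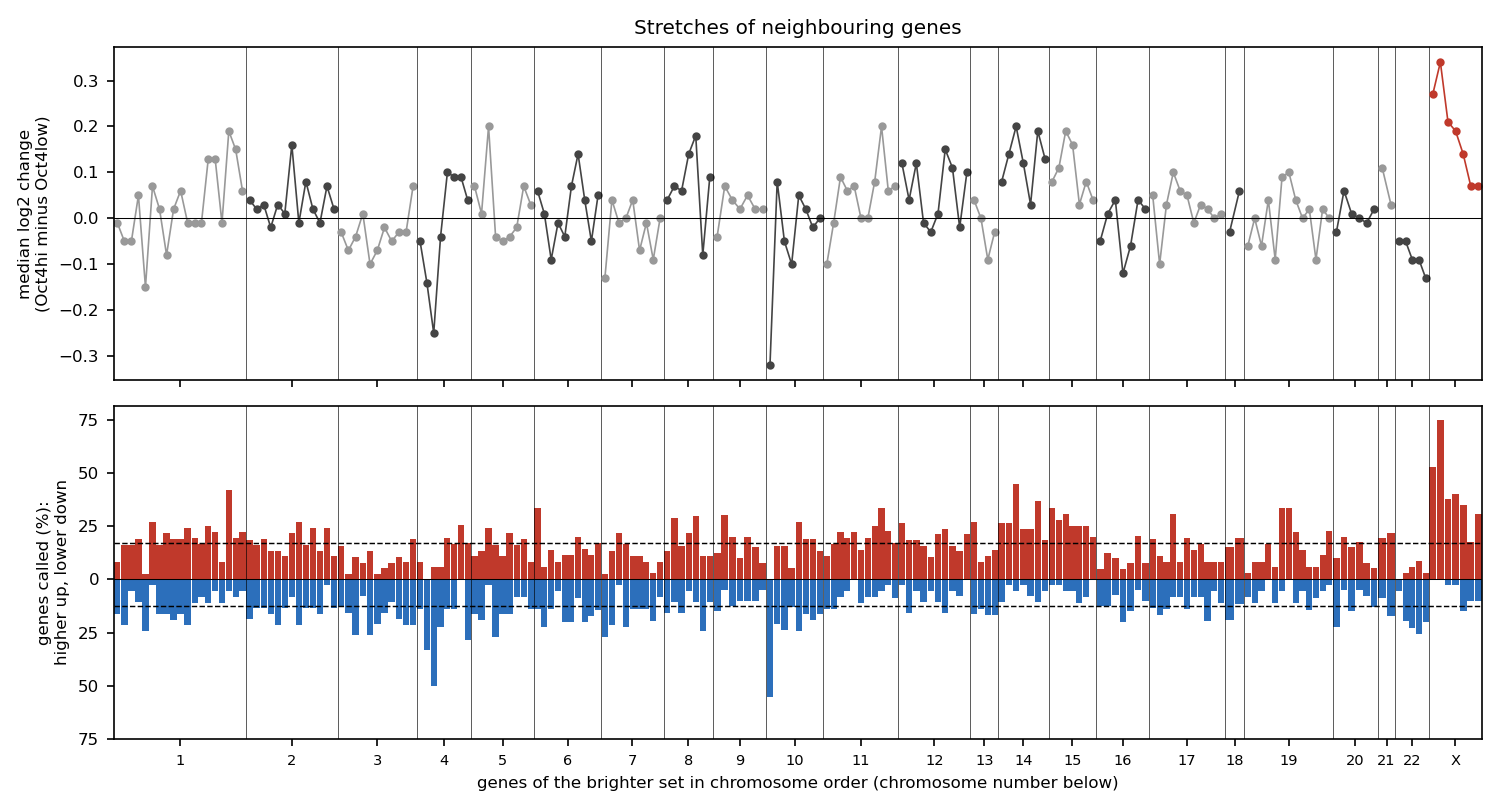
Stretches of neighbouring genes of the brighter set in chromosome order (x axis). The upper panel gives the median log2 change of each stretch, with chromosome X in red; the lower panel gives the percentage of its genes called higher (red, upward) and lower (blue, downward), with dashed lines at the 17.0% and 12.7% of all genes in the brighter set. The second stretch of X has 30 of 40 genes higher and the first of chromosome 10 21 of 38 (55.3%) lower.

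**Figure D4:**
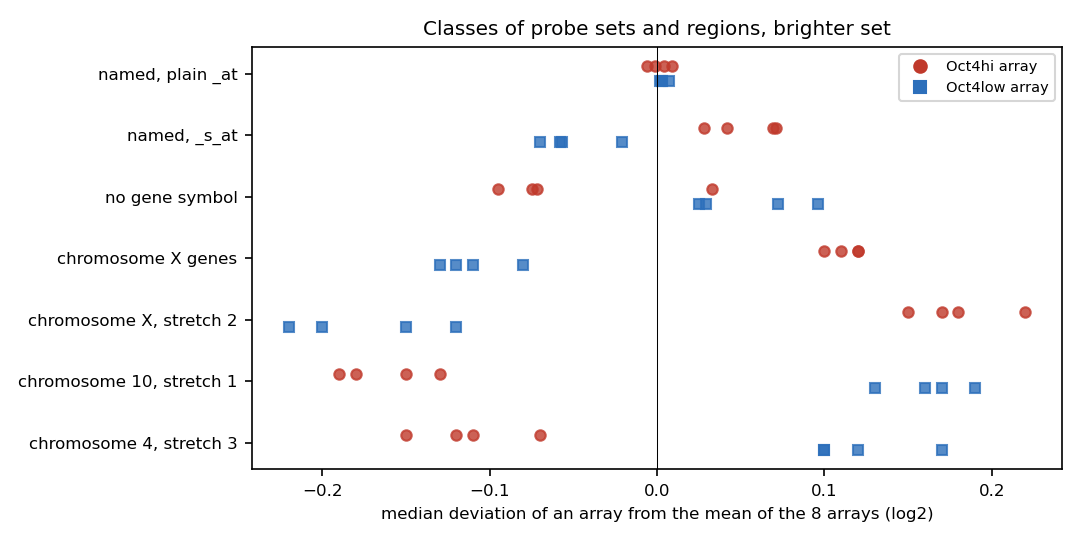
Median deviation of each array from the mean of the 8 arrays (x axis, log2) for probe sets of the brighter set, by class of probe set and by region. Circles are Oct4hi and squares Oct4low arrays; chromosome X, the stretches of chromosomes 10 and 4 and the named _s_at probe sets do not overlap, while 1 Oct4hi array of the unnamed probe sets lies among the Oct4low arrays.

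Gene families and function lists were then read 1 gene at a time on the brightest probe set. Of 100 families and lists, 48 had more members higher than lower, 41 more lower than higher, and 11 as many. The background is the 10.9% higher and 8.43% lower of all genes and a median of 0.003. For genes in the brighter set the background is larger, 17.0% and 12.7% with a median of 0.019. Lists that lie mostly in the brighter set are to be read beside these larger shares. Each gene counts with every list it belongs to.

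Genes of cell division rose most evenly. The G2/M and mitosis list had 21 of 25 members higher and none lower (median 0.42), and 8 of its 12 members with several probe sets rose on every one of them. The G1/S and replication list had 12 of 26 higher and none lower (median 0.21). Beyond these lists, 16 of 22 centromere and kinetochore proteins were higher and none lower (median 0.36), among them CENPI (0.66), SPC25 (0.57), CENPV (0.54) and the cohesin protector SGO2 (0.52). Cohesin and condensin, the rings that hold and fold chromosomes, had 8 of 18 higher and 2 lower. ESCO2, which acetylates cohesin, rose by 0.93 and SMC3 by 0.65 (0.17 and not called without _x_at and _s_at probe sets), while STAG1 fell by 0.49 and PDS5A by 0.27, and both X-linked members (SMC1A and STAG2) rose. Homologous recombination and crosslink repair had 9 of 15 higher and none lower, with RAD51AP1 and NBN at 0.59. Kinesins had 8 of 28 higher and 1 lower, where KIF23 (0.58) and KIF4A (0.5) act in cytokinesis and on chromosomes and KIF5B (0.46) carries cargo. Tubulins had 7 of 19 higher, led by TUBA4A (0.58), and 2 lower, both of them gamma-tubulin complex members (TUBGCP2 at -0.34, TUBGCP6 at -0.29). Histone genes went apart from these lists, with 1 of 31 higher (H2AX, 0.34) and 5 lower.

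The promoters of the mitotic genes are shown because their members moved together and share short sequences of known cell cycle elements. CCAAT boxes bind the factor NF-Y, and TTTGAA is the core of the cell cycle genes homology region, which the DREAM complex binds. Of the 25 members 20 had a promoter in RefSeq (GRCh38.p14), each a window of 300 bases from 250 before to 50 after the start. CCAAT was found on either strand in 18 of 20 (90.0%) and TTTGAA in 14 of 20 (70.0%), against 35.7% and 15.4% of all 27305 promoters of that length. Of the 17 members among them that were called higher, 15 held CCAAT and 12 TTTGAA, so members that were not called held them too. These shares describe the list, and a link with the rise was not tested. The promoters of the 4 members with the largest rise are given 5′ to 3′ on the strand of the gene, with every CCAAT and TTTGAA and their reverse complements ATTGG and TTCAAA in capitals.
TOP2A, chr17:40417847-40418146, minus strand: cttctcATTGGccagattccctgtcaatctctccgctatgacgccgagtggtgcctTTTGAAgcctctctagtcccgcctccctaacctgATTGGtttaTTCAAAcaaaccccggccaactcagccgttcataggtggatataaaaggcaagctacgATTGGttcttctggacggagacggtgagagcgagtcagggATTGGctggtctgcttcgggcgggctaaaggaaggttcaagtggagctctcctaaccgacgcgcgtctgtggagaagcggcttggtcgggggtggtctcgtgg
NUSAP1, chr15:41332631-41332930, plus strand: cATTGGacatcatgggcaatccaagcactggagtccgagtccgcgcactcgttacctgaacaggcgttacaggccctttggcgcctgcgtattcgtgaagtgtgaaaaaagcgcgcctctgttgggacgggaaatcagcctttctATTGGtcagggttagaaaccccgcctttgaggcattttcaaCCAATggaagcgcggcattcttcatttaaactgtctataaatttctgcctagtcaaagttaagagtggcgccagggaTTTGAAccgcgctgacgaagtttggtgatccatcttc
ASPM, chr1:197146620-197146919, minus strand: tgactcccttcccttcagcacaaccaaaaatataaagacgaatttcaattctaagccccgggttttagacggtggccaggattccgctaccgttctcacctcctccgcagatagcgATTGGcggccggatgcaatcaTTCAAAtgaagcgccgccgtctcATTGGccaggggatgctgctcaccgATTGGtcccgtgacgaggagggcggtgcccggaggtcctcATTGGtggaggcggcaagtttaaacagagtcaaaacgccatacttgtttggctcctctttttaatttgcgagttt
BUB1, chr2:110678014-110678313, minus strand: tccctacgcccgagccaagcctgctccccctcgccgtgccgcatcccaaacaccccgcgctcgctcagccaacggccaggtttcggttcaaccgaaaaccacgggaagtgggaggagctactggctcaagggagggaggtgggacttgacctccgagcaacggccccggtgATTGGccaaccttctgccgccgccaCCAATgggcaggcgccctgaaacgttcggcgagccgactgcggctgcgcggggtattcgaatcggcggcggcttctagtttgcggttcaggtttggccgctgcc
TOP2A and ASPM each hold 4 CCAAT boxes, NUSAP1 3 and BUB1 2, and TTTGAA occurs 2 times in TOP2A, 1 time each in NUSAP1 and ASPM and not in BUB1. BUB1 is the least firm of the 4, since 1 of its 4 probe sets was called and its change was 0.1 without _x_at and _s_at probe sets. A match is a string of letters in a window and says nothing of binding in these cells. In the glycolysis and hypoxia list, ACGTG, the core of the hypoxia response element, was found in 11 of 21 promoters (52.4%) against 21.6% of all, but in 4 of the 10 members that fell and in 2 of the 3 that rose.

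Aminoacyl-tRNA synthetases, which charge tRNAs with amino acids, had 6 of 10 higher (LARS1 at 0.87, CARS1 at 0.42) and YARS1 lower (-0.51). CARS1 was not called without Oct4hi replicate 1 or 2 or Oct4low replicate 2, 3 or 4. Neither CARS1 nor LARS1 was called by an ordinary equal-variance t-test. LARS1 also lost its call with an intensity trend (limma adjusted p = 0.0537). The nucleotide and one-carbon list had 6 of 15 higher and none lower, but 3 of the 6 (CTPS2 at 0.62, PRPS1 at 0.51, PRPS2 at 0.41) lie on chromosome X, and without them 3 of 12 were higher. CTPS1, the autosomal CTP synthase, rose by 0.49. RNA helicases had 5 of 23 higher and DDX52 lower (-0.46), and 5 of 25 ribosome biogenesis genes were higher, led by the nucleolar protein NOLC1 (0.61). Mitochondrial ribosomal proteins had 5 of 24 higher by at most 0.3, and without Oct4low replicate 2 MRPL12, MRPL39, MRPS11 and MRPS12 were no longer called. In the brighter set 5 of 19 helicases, 5 of 22 ribosome biogenesis genes and 5 of 19 mitochondrial ribosomal proteins were higher. The share of all genes in that set was 17.0%, so these lists exceeded it by few genes. Cytosolic ribosomal proteins had none of 22 higher and 4 lower, RPS24 by 0.43 and RPS29 by 0.36. In the brighter set 3 of 14 were lower, beside 12.7% of all genes in it. RPS24 was not called by the ordinary equal-variance t-test. RPS15A lost its call without Oct4hi replicate 2 or Oct4low replicate 4, and RPL22 under several alternatives. On every one of several probe sets, DHX9 rose among the helicases and CTPS2 and PRPS2 among the nucleotide genes, while no member of the synthetase, mitochondrial ribosomal or ribosome biogenesis lists did. The name pattern of the synthetases did not take in EPRS1, the glutamyl-prolyl-tRNA synthetase, which rose on both of its probe sets (0.34 and 0.59).

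The C2H2 zinc finger genes named ZNF, most of which encode DNA-binding repressors, were the largest family described. Of 277, 66 were higher and 4 lower (median 0.12), and in the brighter set 54 of 189 were higher and 4 lower. The largest rises were ZNF492 (0.84), ZNF566 (0.81), ZNF480 (0.75) and ZNF850 (0.68). Chromosome 19, where many ZNF genes lie in clusters, held 141 of them with 45 higher and none lower, and the ZNF genes of other chromosomes had 21 of 136 higher and 4 lower. The other 596 genes of chromosome 19, taken over its whole length and at all levels, had 38 higher and 32 lower. In the brighter set, ZNF genes included, the stretches of this chromosome were uneven. The sixth and the seventh each had 12 of 36 genes higher, with 2 and 0 lower, and the first had 1 higher and 3 lower. Other genes inside the ZNF clusters were not compared, and the part of position was not tested. ZNF genes with several probe sets numbered 111, of which 11 rose on every probe set, 1 fell on every one and 1 had opposite calls. Histone lysine demethylases and methyltransferases had 8 of 45 higher, SUV39H1 by 0.54 and KDM1B by 0.49, and 2 lower. In the brighter set 7 of 36 were higher, near the 17.0% of all genes in it. Cancer-testis antigens had 6 of 21 higher and 1 lower, and 19 of the 21 lie on chromosome X, all called members included. In the brighter set 4 of its 10 members were higher, near the 41.2% of all X-linked genes in that set. This list was drawn by a name pattern, so membership alone does not make a gene a cancer-testis antigen. MAGEH1 (1.1), taken in by its MAGE name, and SPANXB1 (0.73) led the list.

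Interferon-stimulated genes split. Of 20, 8 were higher, with XAF1 at 0.61, IFI27 at 0.46 and the helicase DDX60 at 0.44, and the antiviral genes IFIT1, IFIT2 and IFIT3 by 0.29 to 0.31. IRF1 (-0.44), OAS2 (-0.45) and IFI44L (-0.31) were lower. OAS2 was no longer called with the mean of its probe sets (-0.21). Of 19 genes of HLA and antigen presentation none was higher, and TAPBP (-0.26) and ERAP2 (-0.32) were lower, both of which lost the call with the replicate block (limma adjusted p = 0.0673 and 0.0667) and without Oct4low replicate 2.

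The circadian clock list had 7 of 15 lower and none higher (median -0.26). NPAS2, a partner of BMAL1 in the clock, fell on all 5 of its probe sets by 0.34 to 0.93, with 7.69, 7.82, 7.64 and 7.72 in Oct4hi against 8.57, 8.66, 8.74 and 8.58 in Oct4low BCCs on the brightest. The repressors BHLHE41 (-0.79) and BHLHE40 (-0.34) and the period genes PER2 (-0.35) and PER3 (-0.39, but -0.17 and not called without _x_at and _s_at probe sets) were lower too. Krüppel-like factors had 6 of 18 lower, KLF12 by 0.87 and SP3 by 0.53, and KLF5 higher by 0.43. SP3 was no longer called with the mean of its probe sets (-0.18). KLF6 and KLF3 lie in the falling stretches of chromosomes 10 and 4. SOX factors had 3 of 15 lower, with SOX4 at -1.3 and SOX9 and SOX6 at -0.47. On the mean of its probe sets SOX6 changed by -0.15 and was not called. AP-1 and ATF factors had 7 of 22 lower, led by CREB5 (-0.97) and FOSB (-0.57), and CEBPG higher (0.31).

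Among EGFR ligands and outputs of ERK, 6 of 15 were lower and none higher. The ligand EREG read 5.65, 5.73, 5.46 and 5.55 in Oct4hi and 7.17, 7.09, 7.47 and 6.8 in Oct4low BCCs, a fall of 1.53, but its dimmer probe set differed by only -0.14 (limma adjusted p = 0.394). The transcription factor ETV1 fell by 0.99, PHLDA1 by 0.61 and TGFA by 0.38. Dual-specificity phosphatases and sprouty proteins, only some of which damp this pathway, had 6 of 21 lower, with SPRY1 at -1.31, SPRY2 at -0.72 and DUSP4 at -0.68, and DUSP3 higher (0.27). TGFA was no longer called with the mean of its probe sets (-0.19).

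The TGF-beta, BMP and activin pathway split by member, with 12 of 46 lower and 6 higher. BMP4 (-1.12), GDF15 (-0.58, but -0.11 and not called without _x_at and _s_at probe sets) and the receptor TGFBR1 (-0.57) fell. TGFBR1 was not called with the mean of its probe sets (-0.23). INHBE (1.16) and the inhibitor of differentiation ID2 (0.56) rose. The Notch list had 6 of 20 lower, led by the ligand JAG1 (-0.73), and DTX4 higher (0.81). WNT ligands, receptors and antagonists had 8 of 34 lower, with CTNNB1, the beta-catenin gene, at -0.61 and WNT9A at -0.57, and 4 higher, among them the receptor FZD3 (0.56) and the antagonist DKK3 (0.65), whose change was -0.02 without _x_at and _s_at probe sets. Cyclic nucleotide phosphodiesterases had 5 of 17 lower, PDE4B by 1.96 and PDE7B by 0.91, and PDE3B higher (0.69). Prostaglandin genes had 3 of 10 lower and none higher: the reductase AKR1C3 (-0.87), the receptor PTGER4 (-0.81) and the synthase PTGES (-0.77).

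Glycolysis and the hypoxia response had 11 of 23 lower and 4 higher (median -0.28). PFKFB3 (-0.6), MXI1 (-0.5), PFKFB4 (-0.46) and PDK1 (-0.44) had the largest falls and ADM (0.36) the largest rise. PFKFB3 and PFKP lie in the falling stretch of chromosome 10, and PDK3, which rose on 2 probe sets and fell on 1, in the rising second stretch of X.

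Cadherins and protocadherins had none of 51 higher and 4 lower, FAT4 by 1.13, PCDH7 by 0.94, CDH11 by 0.8 and DSC2 by 0.5. The share lower (7.84%) was near the 8.43% of all genes. In the brighter set 4 of 14 were lower, beside 12.7% of all genes in it. Semaphorins, plexins and neuropilins had 9 of 23 lower and 5 higher. SEMA3C (-1.34), PLXNA1 (-1.11) and the co-receptor NRP1 (-0.65) fell, and its relative NRP2 rose by 0.57, called on 4 of its 7 probe sets. Collagens had 4 of 35 lower and 2 higher (11.4% and 5.71%, beside 8.43% and 10.9% of all genes). The collagen IV chains went in both directions, COL4A5 by -1.2 and COL4A1 and COL4A2 by 0.49 each.

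Some further families also lay near or below the background. None of 29 keratins was called, although only 11 of them were in the brighter set. Potassium channels had 2 of 58 higher and 5 lower, KCNS3 (-1.27) and KCNN3 (-0.7) by most. Solute carriers, the largest family of transporters, had 16 of 253 higher and 21 lower, with the organic anion transporter SLCO4A1 at -1.07, SLC38A4 at -0.64, and the amino acid transporter SLC38A1 highest at 0.64. The name pattern also took in non-coding genes of the same loci, of which SLCO4A1-AS1 fell by 1.36.

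**Figure D5:**
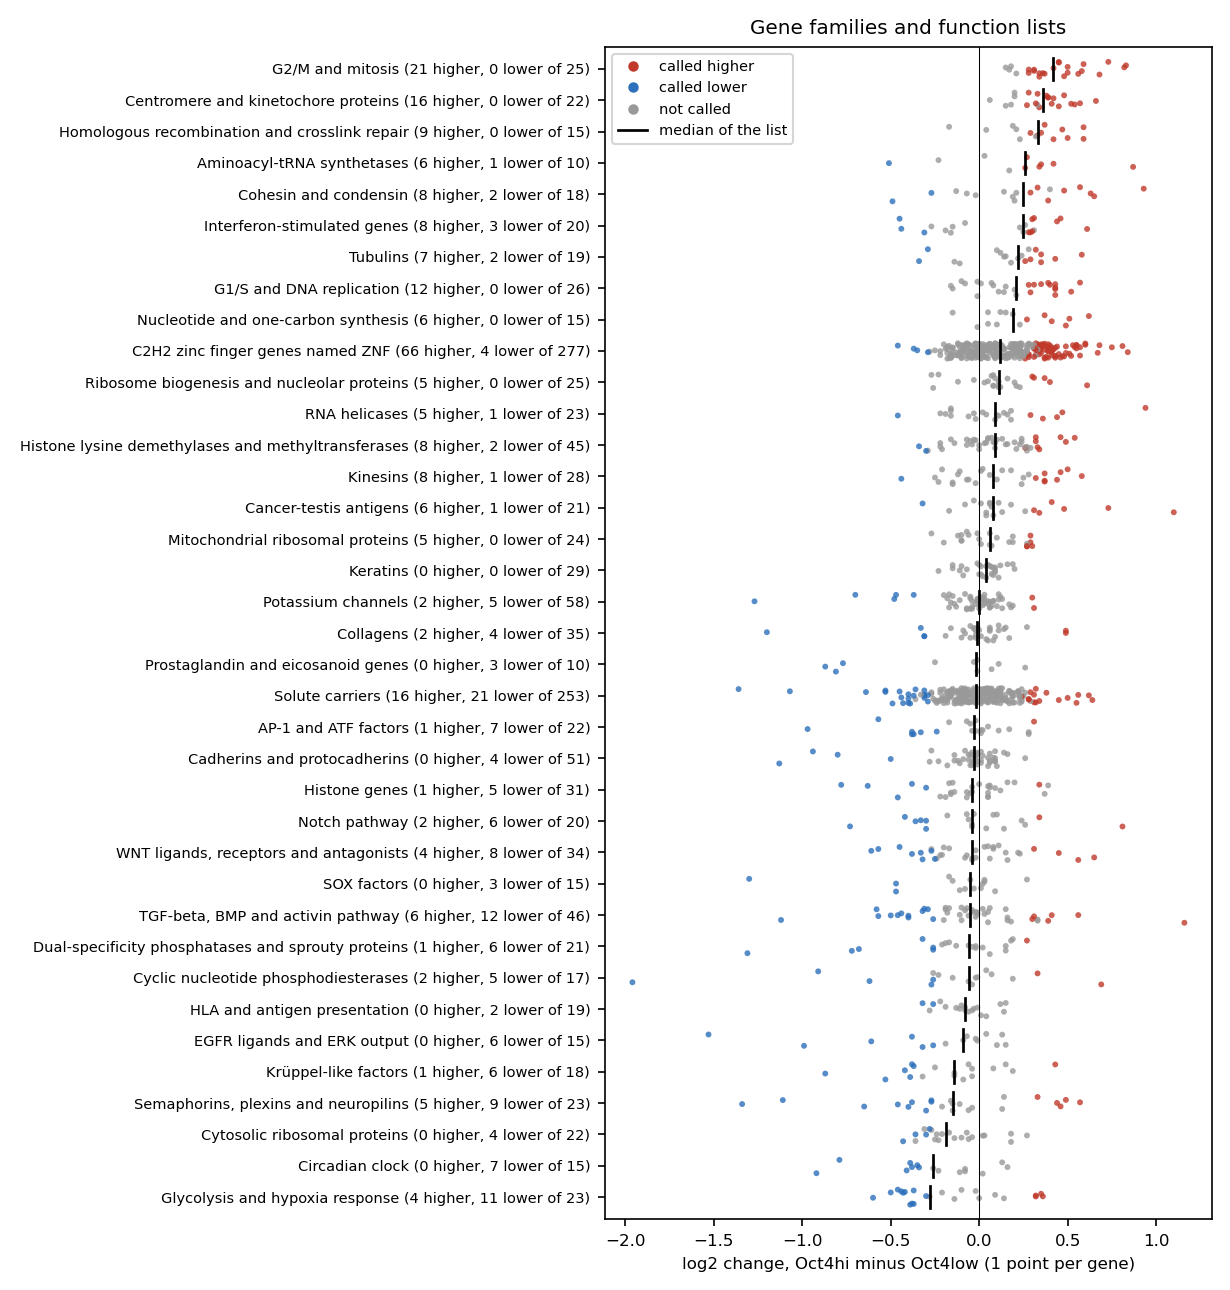
Log2 change (x axis, Oct4hi minus Oct4low) of every measured member of the 37 families and lists described, 1 point per gene on its brightest probe set, ordered by median. Red points were called higher, blue lower and grey not; black bars are medians, which run from 0.42 for the G2/M list to -0.28 for glycolysis and hypoxia, and each label gives the counts.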

How the data were processed

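RNA from 4 sorting experiments was measured for Oct4hi and Oct4low BCCs and from 2 for the middle gate. The authors deposited log2 values from robust multi-array averaging, and per their methods removed features near background or with little variation, which left 25750 probe sets. The genome build and probe sequences behind the table are not given in the sources used here. The 23 control probe sets were set aside. Gene symbols came from the platform annotation (18682 probe sets with 1 symbol, 799 with several, 6246 with none), and 18653 matched RefSeq by gene ID. Groups came from the labels. For the test, limma (version 3.58.1, run under R 4.3.3) estimated a mean for each of the 3 subsets over all 10 arrays, eBayes moderated the variances, and p-values were adjusted by Benjamini-Hochberg over 25727 probe sets (threshold 0.05). The fit was tested on simulated data. Each gene was read on its brightest probe set, by the mean over all arrays.

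Named genes were the 12 largest agreed changes in each direction, the 6 largest in each direction among single-probe-set genes, the 8 widest opposite calls, and called list members. MAOA, the genes of the stretches and the 3 genes read beside FN1 were chosen with their values in view. The comparison, lists and genes were chosen with earlier results of these data known, and the division by chromosome and by class of probe set after seeing the values. Replicates are separate experiments. The labels do not say whether Oct4hi and Oct4low samples of the same number came from the same sort, and the main fit left them unpaired. Some genes are not reported here. The number of arrays limits the precision.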

Additional observations from a re-analysis of the deposited data

Results flagged for a closer look

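Among 354 groups of 4 arrays of named genes, 16 (4.52%) held an array whose gap to its nearest neighbour, divided by the range of the group, passed Dixon's 95% critical value for 4 values, where chance gives about 1 in 20. Oct4hi replicate 4 stood apart for SPC25 (ratio 0.941, 9.72 against 9.63 to 9.64), PHLDA1 (0.894, 10.04 against 9.89 to 9.91), TGFBR1 (0.84, 7.02 against 6.39 to 6.49) and YARS1 (0.84, 7.22 against 6.99 to 7.03). Oct4hi replicate 1 did for ZNF480 (0.863, 6.79 against 6.03 to 6.13) and COL4A2 (0.84, 7.86 against 7.62 to 7.66), and Oct4hi replicate 3 for HAS2 (0.878, 4.15 against 4.05 to 4.06). Oct4low replicate 3 did for NUSAP1 (0.924, 9.74 against 10.05 to 10.07), MAGEH1 (0.896, 4.59 against 4.81 to 4.83), UTP23 (0.861) and COL13A1 (0.848, 11.74 against 11.5 to 11.54). Oct4low replicate 1 did for PTGES (0.938), DDX52 (0.937, 3.97 against 4.14 to 4.15) and MRPS11 (0.919), and Oct4low replicate 4 for RRM2 (0.865) and KLF5 (0.836). Most of these groups were tight, so a small gap was enough. In TGFBR1 and ZNF480 the gap exceeded 0.5 on the log2 scale.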

How the results depend on the processing

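Of 177 named genes, 128 had the same call under every alternative run, and of 814 list medians recomputed under an alternative 132 moved by more than the spread between replicates. The direction turned without _x_at and _s_at probe sets for CALD1 (-0.36), DKK3 (-0.02), DLG1 (-0.69), MRPL39 (-0.07) and SLC38A4 (0.09), and with the mean of all probe sets for GART (-0.06) and ZCCHC7 (-0.11), where other probe sets then stood for the gene. Without _x_at and _s_at, 1180 probe sets, 815 genes, 78 unnamed probe sets and 74 X-linked genes were higher, and all probe sets were higher in 87 genes, lower in 69 and opposite in 16. At an adjusted p under 0.01, 1122 probe sets were higher and 1125 lower, and 668 and 539 genes. An ordinary equal-variance t-test was also run, without the random variance model that the paper's methods name. At p under 0.001 by this t-test the same counts were 963, 814, 642 and 515. After Benjamini-Hochberg it gave 255 unnamed probe sets lower, 69 genes that fell on every probe set and 13 that were opposite. Among probe sets at or above the array median in 2 arrays, 163 genes fell on every one. With an intensity trend, 4 genes of the chromosome 4 stretches were higher. With arrays shifted to a common median, 2633 probe sets were higher and 1794 lower. The replicate block gave 2025 and 2073 probe sets. Deviations of same-numbered arrays from their subset means correlated at -0.117 to 0.167. Only Oct4hi replicate 1 was closest to the Oct4low array of its own number. Such correlations cannot tell whether same-numbered samples came from the same sort. Leaving out 1 array gave 132 to 211 genes higher on every probe set (132 and 134 without Oct4hi 1 and 2), 70 to 113 lower (70 and 71 without Oct4hi 1 and 3), 14 to 51 opposite (17, 14, 14, 19 and 18 without Oct4hi 1, Oct4hi 2, Oct4low 2, 3 and 4), 56 to 99 probe sets more than 2-fold lower (99 without Oct4hi 4), 394 to 880 unnamed ones lower, and 1 to 3 genes higher in the chromosome 4 stretches. Without 1 array, 1539 to 2346 probe sets were higher and 1578 to 2432 lower. ERAP2 lost its call under most alternatives (limma adjusted p = 0.051 in the fit of the 8 arrays alone). By the ordinary equal-variance t-test 24 of the 177 lost theirs with unchanged differences, among them DHX9, LARS1, CARS1, DTX4, DKK3, TGFBR1 and BUB1. The first stretch of chromosome 10 had no gene higher under any alternative run. The cause of these moves was not tested.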
